A study of Mus musculus with 31 samples.

Results

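Trim71 crosslinked to introns was described from the 247 intron peaks among the 498 Trim71 CLIP-seq peaks in mouse embryonic stem cells (mESCs), the peaks that the authors' annotation class names as intronic. The other classes held 154 peaks in 3'UTRs, 41 in intergenic sequence, 28 in coding sequence, and 28 in 5'UTRs, so introns held 49.6% of the peaks (95% Wilson interval 45.2% to 54.0%). The peaks come from FLAG-Trim71 mESCs, an ES-E14TG2a line with a FLAG tag knocked in to the endogenous *Trim71* locus, after UV crosslinking and immunoprecipitation with an anti-FLAG antibody. The authors set 2 immunoprecipitated samples against 1 size-matched input and deposited 1 list of peaks common to both, with 1 number of reads for each peak and no value per replicate. The levels of the genes around the peaks come from 12 RNA-seq libraries of the same genetic background. They are 2 of WT mESCs (the FLAG-Trim71 line), 2 of CLIPΔ mESCs, which lack the stretch of the *Ago2* 3'UTR that Trim71 binds, 4 of *Ago2* KO mESCs, and 4 of *Ago2* KO/CLIPΔ mESCs, which carry both changes. All 4 genotypes grew in 2i and lif. The edited lines were grown from single sorted cells. The labels call the libraries biological replicates without naming the clone or culture of each, so p-values measure the spread between these samples, which may be technical in part.

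Trim71 is an RNA-binding TRIM-NHL protein of early embryos and stem cells that is best known for repressing mRNAs through their 3'UTRs. CLIP-seq crosslinks a protein to the RNA it touches, trims the RNA, and sequences what stays bound. Introns are spliced out and degraded in the nucleus, although some of them hold small RNAs, such as the snoRNAs that guide modification of rRNA, which outlast their intron. A peak in an intron can therefore lie in unspliced pre-mRNA or in a small RNA cut from it, and the assay alone does not separate these.

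The cells expressed markers of mESCs. *Pou5f1*, a core pluripotency factor, was between 2313 and 3262 TPM (a transcript level scaled by length and library) over the 12 libraries, and *Trim71* itself was at 34.9 TPM in both WT libraries. *Sox2* had no row in the table. Of the markers of other cells, *Gata6* stayed at or below 0.79 TPM and *Pax6* at or below 0.285 TPM, whereas *Vim* was between 224 and 501 TPM and *Tubb3* between 40.1 and 147 TPM. The neural marker *Nes* was between 26.4 and 110 TPM, and the mesendoderm markers *Eomes* and *T* were between 24.7 and 59.1 TPM and between 5.25 and 22.8 TPM. *Ago2* was at 28.2 and 21.6 TPM in WT, 27.3 and 20.3 TPM in CLIPΔ, 1.67 to 2.29 TPM in *Ago2* KO, and 1.51 to 2.88 TPM in *Ago2* KO/CLIPΔ mESCs, so the genotypes that lack Ago2 did not overlap the others.

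The intron peaks shared short stretches of sequence just downstream of their centres. In 50-nt windows centred on the peaks and read on the transcript strand, the word ACTCTGA lay in 19 of 247 windows, 7.69%, against 0.442% of all windows of this length in the introns of the host genes and 3 of 154 3'UTR windows. No other 7-nt word was more frequent, and CTCTGAA was as frequent, in 19 windows, against 0.611% of the host intron windows and 2 of the 3'UTR windows. The word GAACTCT lay in 18 intron windows and no 3'UTR window. Chaining the overlapping words among the 25 most frequent gave the 21-nt run AGGACTGTAGAACTCTGAACT. No window held the whole run, and the longest exact stretch of it around an intron peak was 13 nt, in *Polr1d*. The 7 stretches of at least 11 nt are shown here in 30-nt windows of mm10, with the letters that match the run in capitals, since they carry the pattern described next:
Polr1d (chr5:147082179-147082208, + strand): agaggctgGTAGAACTCTGAAtttgaagac
Shroom3 (chr5:92694173-92694202, + strand): catttgcttACTGTAGAACTaattgtctgt
Zcwpw1 (chr5:137792807-137792836, + strand): cctggatgtTGTAGAACTCTctctgtagac
Rheb (chr5:24812462-24812491, - strand): tgtttagacTAGAACTCTGAcactgccttg
Dlgap1 (chr17:70721292-70721321, + strand): gacttgtccTAGAACTCTGAgactagcgtt
Nrxn3 (chr12:89785578-89785607, + strand): ctatcaataTGTAGAACTCTtgacactagt
Mgat4c (chr10:102078411-102078440, + strand): cattacagaTGTAGAACTCTtgaacttgca

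*Polr1d* encodes a subunit shared by RNA polymerases I and III, *Rheb* the GTPase that activates mTORC1, *Shroom3* an actin-binding protein, and *Nrxn3* and *Dlgap1* proteins of the synapse. The peaks beside the 7 stretches had between 813 and 6912 reads. The match began 18 nt downstream of the peak centre in *Polr1d*, 12 nt in *Shroom3*, 9 nt in *Rheb*, 8 nt in *Dlgap1*, 6 nt in *Nrxn3*, and 5 nt in *Zcwpw1*. In *Mgat4c* it began 2 nt upstream of the centre.

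At least 1 of the 15 pieces of 7 nt in the run lay in 90 of 247 intron windows, 36.4% (95% Wilson interval 30.7% to 42.6%). The pieces were picked for their frequency in these windows, so the share is a description. Among all 53681109 windows of 50 nt in the 4128 introns of the host genes, 4.35% held a piece, and among windows 500 nt upstream and downstream of the intron peaks, 4.86% and 5.26% did. On the opposite strand of the same intron windows the pieces lay in 1.21%. The 3'UTR windows held a piece in 22 of 154 cases, 14.3% (9.63% to 20.7%), against 3.90% and 5.19% in their flanks. Outside introns as a whole, 37 of 251 windows, 14.7%, held one.

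The pieces were concentrated on one side of the peak. A piece started 0 to 9 nt downstream of the centre in 44 intron peaks, 10 to 19 nt downstream in 52, and 20 to 29 nt downstream in 24, whereas every 10-nt bin upstream of the centre held between 2 and 6 peaks. In 3'UTR peaks the same bins downstream of the centre held 7, 7, and 10 peaks. A stretch of at least 10 exact letters of the run lay within 60 nt of 18 intron peaks and 3 peaks of all other classes, and on the opposite strand of none of the 498. The same letters, read on the other strand, also occur in a widely used 5' adapter of small-RNA library kits. The study's list of resources includes a NEBNext small-RNA library kit, without saying which libraries were made with it. The adapters of the CLIP-seq libraries are not given in the sources used here, and their part in the pattern was not tested.

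**Figure D1:**
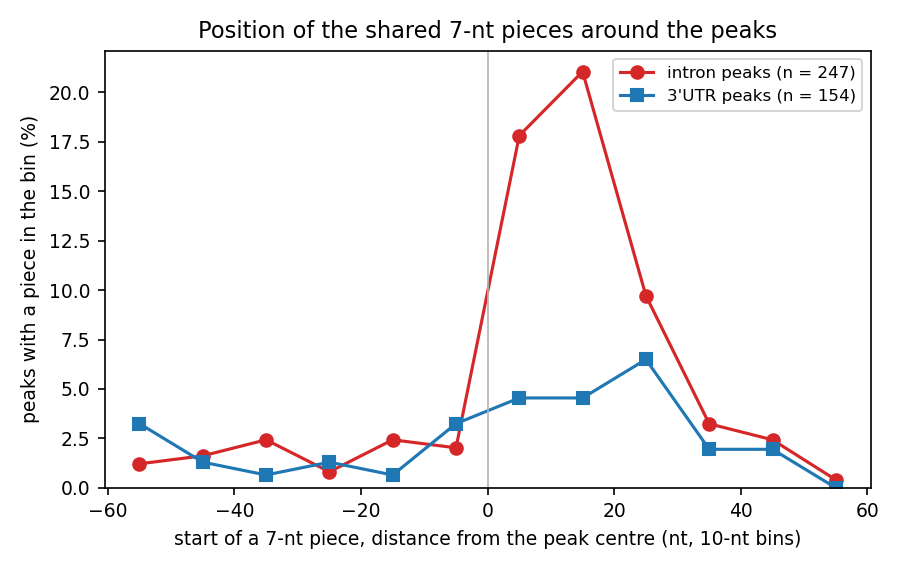
Share of peaks (%, vertical axis) in which a 7-nt piece of the shared run starts in each 10-nt bin, by distance from the peak centre in the direction of the transcript (nt, horizontal axis), for the 247 intron peaks (red circles) and the 154 3'UTR peaks (blue squares). The intron share is 17.8% and 21.1% in the first 2 bins downstream of the centre and at most 2.43% in every bin upstream.

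The reads and widths of peaks with and without a piece overlapped widely. The 90 with one had a median of 2452 reads (quartiles 1048 and 3720) and a width of 8 nt, and the 157 without had 2271 reads (quartiles 1221 and 3900) and 7 nt. Among the 73 and 135 of them with a host in the TPM table described later, the host was under 1 TPM in WT for 46.6% and 40.0%. Only 2 of the 21 peaks at annotated small RNAs held a piece.

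Small RNAs took a large part of the reads. Of the 247 intron peaks, 21 overlapped an annotated small RNA on the same strand, 16 a snoRNA and 5 a 5S rRNA-like gene, and these 21 held 48.8% of all reads in intron peaks. The 5S rRNA-like peaks alone held 28.4% and the snoRNA peaks 20.4%. The largest intron peak, in *Lrch3*, lay in the 5S-like gene n-R5s33 and had 304206 reads, 25.2% of the reads in intron peaks. Reads from rRNA were removed by the authors before mapping, and n-R5s loci, copies of 5S rRNA scattered over the genome, share sequence, so a read cannot be given to a single copy with certainty. All 5 windows are shown here because they include the largest intron peak and come from copies of one gene, with the bases of the peak in capitals and the start and end in mm10:
n-R5s33 (chr16:33001962-33001991, + strand): GGTCAGGCCTGGTTAGTACTTGGATGGGAG
n-R5s88 (chr9:102127938-102127967, + strand): CTAAGCAGGGTCGGGCCTGGTTAATACTTG
n-R5s151 (chr7:16471841-16471870, + strand): CCGATCTTGTCTGATCTCGGAAGCTAAGCA
n-R5s77 (chr10:78314218-78314247, + strand): aagaagggtcAGACCTGGTTagtacttgga
n-R5s58 (chr12:53046761-53046790, - strand): gtctGATCTTGGAAGCTAAGTAGGGtcggg

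The last 4 had 16221, 13595, 6333, and 2052 reads, and the file lists no host gene for them. Of the 41 intergenic peaks, 13 also carry an n-R5s name.

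*Snhg1*, a noncoding RNA whose introns hold a series of snoRNAs, had 3 intron peaks of 87925, 43857, and 9468 reads, each at another snoRNA. *Rpl4* and *Rpl7a*, which encode ribosomal proteins, had peaks of 9603 and of 3900, 3054, and 223 reads at the snoRNAs within them. Other snoRNA hosts were *2410006H16Rik* (25265 reads, at *Snord49a*), *Zfas1* (10650 and 1007), *Gas5* (8885, at *Snord80*), *Rabggtb* (7711), *Tnpo2* (5005), *Atp5b* (1876, at *Snord59a*), and *Nop56* (1822), which itself encodes a core protein of snoRNPs. The windows of 3 strong peaks have the bases of the peak in capitals:
Snhg1, most reads (chr19:8725341-8725370, + strand): ATATATGATGACTTTCATAGAATCTCGTTC
Snhg1, next (chr19:8725601-8725630, + strand): TGATGAACTGAATACCGCCCCAGTCTGATA
2410006H16Rik (chr11:62603437-62603466, + strand): cagaaagcttgACTGCTGTGatgagatgac

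The 21 small RNA peaks had a median of 8885 reads and 16 nt, and the other 226 intron peaks a median of 2276 reads and 7 nt. Over all 247, reads ran from 4 to 304206 with a median of 2323 (quartiles 1135 and 3811), beside medians of 1811 in 3'UTR, 1932 in coding sequence, 4016 in intergenic, and 4094 in 5'UTR peaks. Widths ran from 1 to 61 nt with a median of 7 nt (quartiles 4 and 15.5), beside 4 nt for 3'UTR peaks, and 71 intron peaks were under 5 nt. Widths are end minus start, and if the file counts both ends each is 1 nt longer. The largest peaks away from any small RNA were in *Rec114* (17882 reads), a meiotic recombination gene, *Jmjd1c* (16222), a histone demethylase gene, *Mob3b* (11144), a kinase-adaptor gene, and *Spry2* (10304), an inhibitor of FGF signalling. Reads per peak have no counterpart per replicate, so none of these differences was tested.

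**Figure D2:**
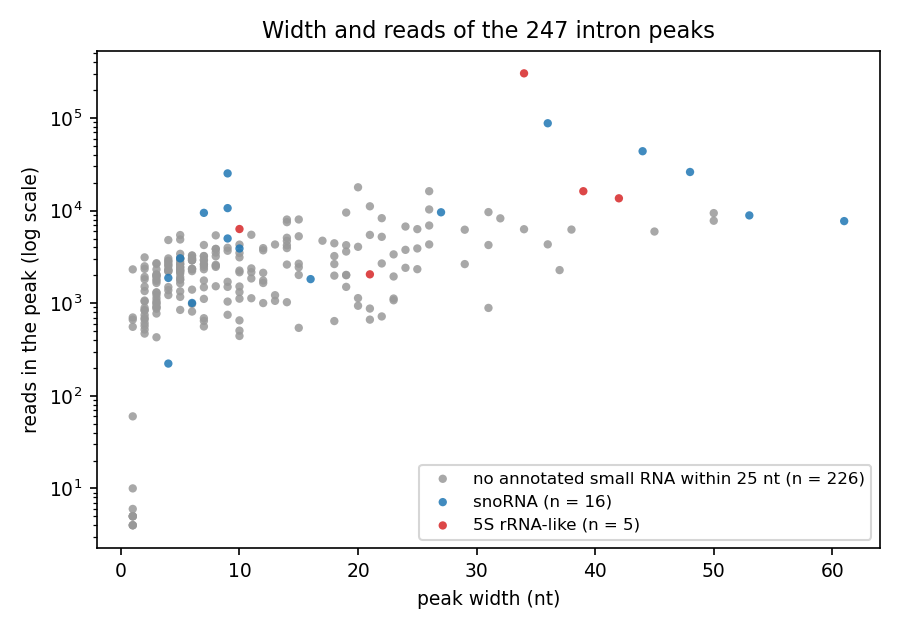
Reads in each of the 247 intron peaks (log scale, vertical axis) against its width (nt, horizontal axis), with 1 point per peak, coloured by the annotated small RNA within 25 nt. Among the 5 peaks with the most reads 4 lie at snoRNAs and the highest, at 304206 reads, at a 5S rRNA-like gene, while the 10 peaks under 100 reads are all 1 nt wide.

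Away from small RNAs the peaks were spread through long introns. The 226 peaks lay in introns with a median length of 22742 nt (255 to 996015 nt), beside a median of 2319 nt over all introns of the hosts, and the 17 small RNA peaks with a host lay in introns with a median of 261 nt. With each intron cut into 5 equal parts from the 5' to the 3' splice site, the parts held 53, 46, 46, 43, and 38 peaks. One peak lay within 100 nt of a 5' splice site and 4 within 100 nt of a 3' splice site, and the median distance to the nearer site was 3859 nt. The first intron of a transcript held 92 of the 226, and the share of intron length in first introns was not computed. In the GENCODE annotation, 22 of the 247 peaks also fell in an exon of some transcript of the host, 10 of them at small RNAs, so their class depends on the transcript chosen.

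Of the 247 intron peaks, 160 lay on the + strand of the genome, 64.8% (95% Wilson interval 58.6% to 70.5%), against 80 of 154 3'UTR peaks, 51.9% (44.1% to 59.7%). Coding sequence peaks had 82.1% on this strand, 5'UTR peaks 96.4%, intergenic peaks 51.2%, and all 498 peaks 62.4%. The excess was therefore not particular to introns. The windows of intron peaks had a median GC content of 46%, against 40% in 3'UTR peaks, 44% in both flanks, and 42.5% over the host introns. Their median folding energy was -9.10 kcal/mol, against -8.00 and -7.50 kcal/mol in the upstream and downstream flanks and -6.70 kcal/mol in 3'UTR windows. The windows of 5'UTR peaks had 48% GC and -9.55 kcal/mol, those of intergenic peaks 46% and -11.6 kcal/mol, and those in coding sequence 44% and -7.15 kcal/mol. A stem with a loop of 3 to 5 nt was predicted in 51.8% of intron windows, 48.2% and 47.0% of their flanks, and 46.8% of 3'UTR windows. Repeats covered most of the window in 43 intron peaks, 17.4%, against 20.2% and 22.7% in the flanks.

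The 247 peaks, apart from 4 without a host, lay in 224 host genes, 211 of them protein-coding, and the hosts were long. More than 1 host was listed for 6 peaks, which count under each. Their median length was 119345 nt, against 38148 nt for genes with a 3'UTR peak and 17403 nt for all 21951 protein-coding genes. Hosts over 100000 nt held 134 of the 247 peaks, 54.3%, and protein-coding genes of that length hold 63.0% of the total intron length of protein-coding genes. Only 1 host, *Rabggtb*, also had a 3'UTR peak, and 6 had a 5'UTR peak, among them *Snhg1*, *Zfas1*, and *Gas5*.

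Most hosts had a single intron peak, 202 of 224, and 22 had 2 or 3. *Dlgap1*, *Rpl7a*, and *Snhg1* had 3. The repeats were mostly close together: of 25 successive pairs in one gene, 16 were 21 to 57 nt apart with a median of 29 nt, and after merging peaks within 100 nt only 8 hosts kept more than 1. *Drosha*, which encodes the nuclease that starts miRNA maturation, had peaks of 4 and 1134 reads 25 nt apart in an intron of 8611 nt. *Erbb4*, a receptor tyrosine kinase gene, had peaks of 3773 and 60 reads 31 nt apart, and *Madd* had 8020 and 9537 reads 21 nt apart. Besides *Drosha*, 5 genes paired a peak of 10 reads or fewer with a large one, *Eif5b* (2282 and 5 reads, upstream peak first), *Hmcn1* (1815 and 4), *Clk3* (1926 and 6), *Pde4b* (1797 and 4), and *Slc44a5* (10 and 1513). The peaks were closer in size in *D630045J12Rik* (2350 and 2470), *Gm13629* (1320 and 1517), *Epb41* (1383 and 2165), and *Fam169b* (2672 and 610). The upstream peak had more reads in 8 of the 16 pairs, and the larger peak held a median of 14.0 times the reads of the smaller. Of the 10 intron peaks under 100 reads, 7 were the weaker member of such a pair. Hosts with peaks far apart were *Gm20388* (2690122 nt), *Dlgap1* (428091 nt), *Prkg1* (251051 nt), *Lrmda* (124649 nt), *Wwox* (79127 nt), and *Myo1e* (70922 nt). *Gm20388* is annotated over 4434882 nt, and its 2 peaks are also those of *Map1lc3b* and *Galnt2*, separate genes within that span. It is among the 22 hosts with repeated peaks and the 8 left after merging through this overlap of annotations. The 50-nt window of the *Dicer1* peak was 100% masked as repeats, and whether its reads come from this locus was not tested. The windows of the genes of the miRNA pathway and of *Spry2* have the bases of the peak in capitals:
Drosha, upstream (chr15:12923070-12923099, + strand): attcaaatagttcttGgagggctgttagtg
Drosha, downstream (chr15:12923097-12923126, + strand): gtggtctccaagtaCTGgtagacatttctg
Dicer1 (chr12:104746653-104746682, - strand): atgatgtagaccagGCtggccttgaacttg
Spry2 (chr14:105894481-105894510, - strand): ccTAAGGCTAGACGCCTAGGATGTGGGTct

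**Figure D3:**
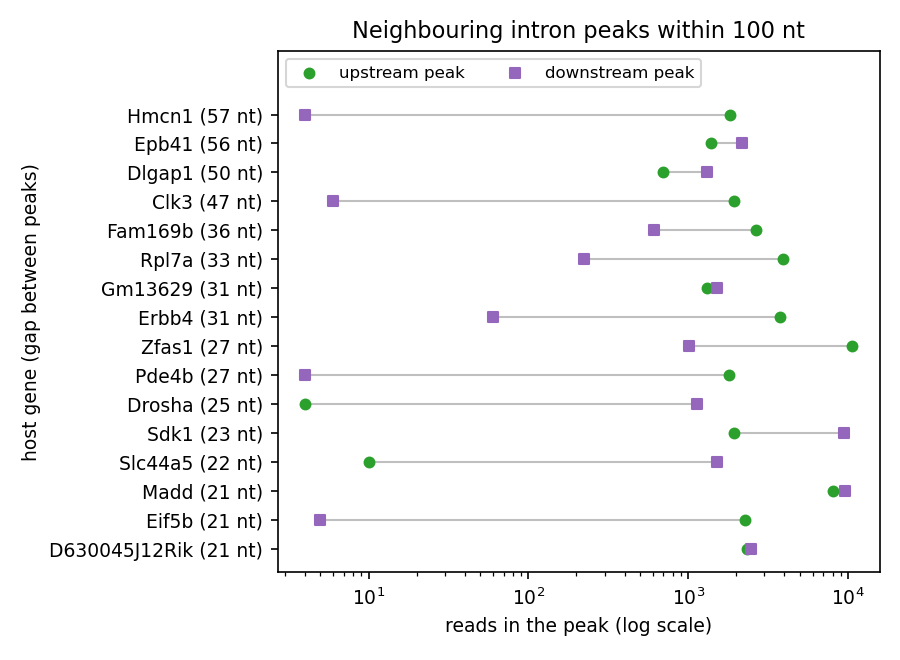
Reads (log scale, horizontal axis) in the upstream peak (green circles) and the downstream peak (purple squares) of the 16 pairs of intron peaks within 100 nt in one gene, with the gap in nt beside the gene name. In 7 pairs 1 peak has 60 reads or fewer and its neighbour at least 1134.

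Many hosts were barely expressed in WT mESCs. Of the 224 hosts, 187 had a row in the TPM table, which keeps only genes above 0 in every library, and their median was 1.98 TPM (quartiles 0.275 and 18.9) over the means of the 2 WT libraries. The median over all 15034 genes of the table was 8.06 TPM and that of 115 genes with a 3'UTR peak 56.5 TPM. Under 1 TPM were 79 of 187 hosts, 42.2% (95% Wilson interval 35.4% to 49.4%), 22.6% of all genes of the table, and 0 of 115 genes with 3'UTR peaks. At 10 TPM or more were 58 hosts, 31.0%, against 81.7% of that second set. The hosts under 1 TPM had a median length of 303426 nt and those of at least 10 TPM one of 36062 nt.

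**Figure D4:**
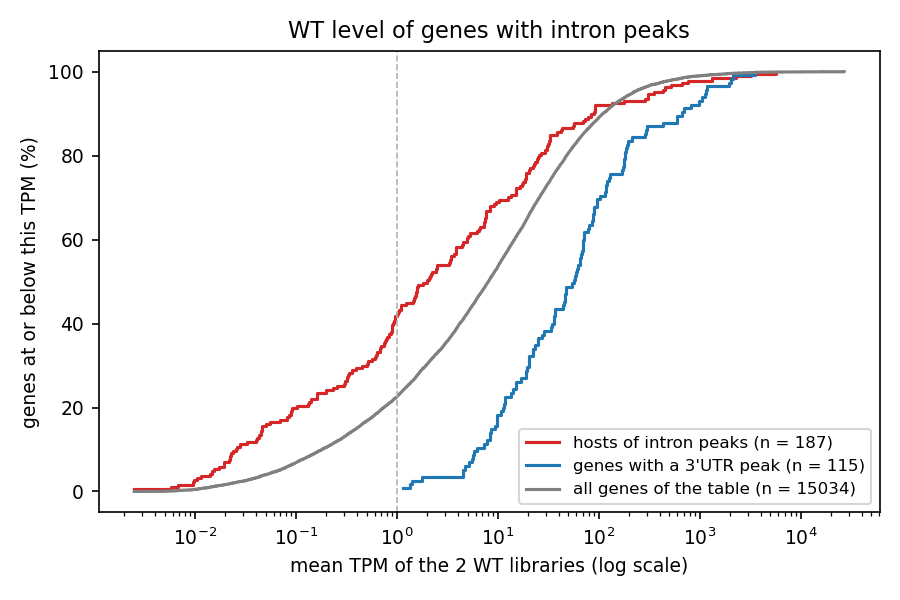
Cumulative share of genes (%, vertical axis) at or below each mean WT level (TPM, log scale, horizontal axis) for 187 hosts of intron peaks (red), 115 genes with a 3'UTR peak (blue), and all 15034 genes (grey), with a dashed line at 1 TPM. At 1 TPM the curves stand at 42.2%, 0%, and 22.6%.

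The reads in a peak did not rise with the level of the host. Without small RNA peaks, the median was 2282 reads for 88 peaks with a host under 1 TPM, 2470 reads for 53 peaks with a host from 1 to 10 TPM, 1926 reads for 53 peaks at 10 TPM or more, and 2227 reads for 32 peaks without a host in the table. Spearman's rho of reads and TPM was -0.08 across these 194 peaks with a level, which share their 2 libraries of origin and in part their host. A 7-nt piece of the run lay in 38.6%, 43.4%, and 28.3% of the windows of the 3 levels.

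*Nrxn3*, a presynaptic adhesion molecule, was the lowest host, at 0.004 and 0.00096 TPM in the 2 WT libraries and had a peak of 813 reads. *Erbb4* was at 0.0093 and 0.010 TPM, and *Prkg1*, *Asic2*, and *Lrmda* had means of 0.0098, 0.0057, and 0.0068 TPM. Of 30 genes in a list of neuronal adhesion molecules and channels, 16 were hosts, and the 13 of these in the table were at 0.0025 to 0.51 TPM (median 0.069). Their 16 genes held 19 peaks of 568 to 9408 reads with a median of 1938. Among them *Sdk1*, a synaptic adhesion molecule, had 1938 and 9408 reads, and *Ryr3*, a calcium release channel, 8294 reads at 0.082 TPM. *Lsamp*, *Unc80*, and *Slc17a6* had no row in the table. The list was written with the peaks known and does not stand as evidence on its own.

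*Rpl4* was the highest host, at 6125 and 5193 TPM, with its peak at a snoRNA. *Zfp42*, a marker of naive mESCs, was at 671 and 675 TPM with a peak of 1069 reads, and *Spry2* was at 445 and 464 TPM. Of the list of 26 genes of the miRNA pathway, *Drosha* (43.6 and 42.3 TPM) and *Dicer1* (29.9 and 28.5 TPM) were hosts. *Dicer1* encodes the nuclease that cuts miRNA precursors after Drosha, and its peak lies in a window fully masked as repeats. Of 37 chromatin genes 6 were hosts, including *Jmjd1c* and *Nasp*, a histone chaperone gene, and 4 pluripotency genes of 24, *Zfp42*, *Spry2*, *Alpl*, and *Tcf7l2*. The lists of RNA processing and translation and of signalling had 15 hosts of 32 and 25 hosts of 32. All of the lists were written with the peaks known, so these counts reflect how the lists were made and are no measure of enrichment. Of all 21951 protein-coding genes, 211 were hosts.

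The 4 genotypes were then compared for the host genes with limma, an empirical Bayes linear model, on log2(TPM + 1) over every gene that averaged 1 TPM or more across the libraries of a comparison. The p-values were adjusted by Benjamini-Hochberg over all genes tested, and fold changes on this scale understate the change of low genes. Bulk RNA-seq does not separate less RNA per cell from fewer cells of a type.

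CLIPΔ mESCs test whether the Trim71 site in *Ago2* mRNA affects other transcripts. Between CLIPΔ and WT mESCs, 0 of 111 hosts tested passed, as did 0% of all 11642 genes, and 5 hosts had an unadjusted limma p under 0.05, 4.5% against 5.19% of all genes. The median log2 fold change was -0.08 for hosts and -0.05 for all genes. With the replicate number as a block, 1 host and 191 higher and 142 lower of all genes passed, so the count of 0 depends on the fit. The host with the smallest p was *Parm1*, a membrane protein gene with a peak of 4256 reads, at 4.997 and 2.85 TPM in CLIPΔ and 0.945 and 0.856 TPM in WT, a log2 fold change of 1.34 ± 0.27 (SE) with a limma adjusted p of 0.570. Without CLIPΔ replicate 2 its limma adjusted p was 0.00342. A change of this size did not pass with 2 libraries a group, so the count of 0 does not show that the hosts were alike in both genotypes.

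Between *Ago2* KO and WT mESCs, 67 of 103 hosts passed, 65.0% against 57.5% of all 11297 genes tested, 62 of them lower (60.2% against 43.5%) and 5 higher (4.85% against 14.1%). At an unadjusted limma p under 0.05 there were 73 hosts, 70.9% against 63.3%. The median change was -0.43 for hosts and -0.26 for all genes, so the whole table had shifted. Genes with a 3'UTR peak fell further than hosts, with a median of -0.63 and 90 of the 113 tested past the threshold. With each library centred on its median, 20 hosts were higher and 32 lower, beside 3655 and 2316 of all genes, so the balance of directions depends on the scaling. Genes of at least 1 TPM numbered 11632 and 11505 in the WT libraries and 10925 to 10994 in the *Ago2* KO libraries. Clones or sets of libraries that go with the genotype cannot be told apart from loss of Ago2 in this design and were not tested. Markers of other cells moved with the genotype as well. *Tubb3* was at 40.1 to 51.6 TPM in WT and 136 to 147 TPM in *Ago2* KO mESCs, and *Nes* at 66.0 to 73.7 and 26.4 to 29.5 TPM, and their part in the changes of the hosts was not tested. The 62 lower hosts included 9 of 12 in the list of RNA processing and translation, 8 of 9 in signalling, and 4 of 5 in chromatin. They also included 2 of 3 in pluripotency and 1 of 2 in the miRNA pathway. Of all genes tested in these lists, hosts or not, 22 of 28, 10 of 12, 22 of 35, 10 of 22, and 15 of 21 were lower, in the same order. These totals include the hosts, which were 9 of the 12 in signalling and 12 of the 28 in RNA processing and translation. In chromatin, pluripotency, and the miRNA pathway the hosts were 5 of 35, 3 of 22, and 2 of 21. Lower levels in these last 3 lists were therefore not particular to hosts.

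*Snhg1* fell most, from 442 and 263 TPM in WT to between 75.04 and 99.1 TPM in *Ago2* KO mESCs, by 1.96 ± 0.21 on the log2 scale (limma adjusted p = 0.000528). *Jmjd1c* was at 18.8 and 15.5 TPM in WT and between 5.14 and 5.61 TPM in *Ago2* KO mESCs, and fell by 1.505 ± 0.10 (limma adjusted p = 0.000191). *Akap9*, *Cep83*, and *Dst*, which encode proteins of the centrosome or cytoskeleton, fell by 1.55, 1.39, and 1.37. *Nasp* went from 306 and 310 TPM to between 109 and 132 TPM, *Mtf2*, a Polycomb-associated gene, from 86.6 and 58.4 TPM to between 28.3 and 34.0 TPM, and *Spry2* to between 213 and 239 TPM. In each of these genes the 2 genotypes did not overlap, as for 81 of the 103 hosts and 68.4% of all genes tested.

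The miRNA processing hosts differed from each other. *Dicer1* was between 12.02 and 13.3 TPM in *Ago2* KO mESCs, below both WT values, and fell by 1.16 ± 0.09 (limma adjusted p = 0.000216). *Drosha* was between 35.3 and 38.4 TPM, a log2 fold change of -0.21 ± 0.08 with a limma adjusted p of 0.0572, which passed without WT replicate 2 (limma adjusted p = 0.0419). *Zfp42* was between 546 and 628 TPM, a change of -0.19 ± 0.09 with a limma adjusted p of 0.105. With centring the changes of *Drosha* and *Zfp42* were 0.14 and 0.16.

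The 5 hosts that were higher were *Phldb1* (0.92 ± 0.25), *St8sia5* (0.46), *Cdk16* (0.30), *Atp5b* (0.27), and *Rcc2* (0.26). *Phldb1* was at 2.1 and 4.57 TPM in WT and between 5.73 and 8.30 TPM in *Ago2* KO mESCs, and without WT replicate 1 it did not pass (limma adjusted p = 0.090). *Atp5b* did not pass without any one *Ago2* KO library, nor *Rcc2* without *Ago2* KO replicate 1, 2, or 3 or WT replicate 1.

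On the CLIPΔ background, *Ago2* KO/CLIPΔ and CLIPΔ mESCs were compared, with the same limit from clones and sets of libraries. The median change was -0.38 for hosts and -0.62 for genes with a 3'UTR peak, of which 86 of 113 passed. Among hosts, 53 of 104 passed the threshold, 51.0% against 47.9% of all 11256 genes. Of the 53 hosts, 49 were lower (47.1% against 37.2%) and 4 higher (3.85% against 10.7%). After centring 22 hosts were lower and 14 higher. Without CLIPΔ replicate 1 the count was 33. *Snhg1* again fell most, from 457 and 219 TPM in CLIPΔ to between 71.6 and 107 TPM, by 1.83 ± 0.30 (limma adjusted p = 0.0041). *Rabggtb*, which encodes a subunit of the Rab geranylgeranyl transferase and holds a snoRNA, fell by 1.41, *Mtf2* by 1.34, *Parm1* by 1.31, and *Nasp* by 1.27. *Hspb6*, a small heat shock protein gene, was the most raised at 1.13 ± 0.36 (limma adjusted p = 0.0335), but its CLIPΔ libraries were at 10.3 and 20.3 TPM, and it did not pass without CLIPΔ replicate 1 (limma adjusted p = 0.261) or *Ago2* KO/CLIPΔ replicate 3 or 4. Of the other 3 that were higher, *Cdk16* (0.44) passed with any 1 library left out. *Phldb1* (0.81) did not pass without CLIPΔ replicate 1 or *Ago2* KO/CLIPΔ replicate 1 or 2, and *Ccdc3* (0.59) passed only with all 4 *Ago2* KO/CLIPΔ libraries and CLIPΔ replicate 1. *Dicer1* fell by 0.60 ± 0.15 (limma adjusted p = 0.0148), from 20.3 and 22.4 TPM to between 11.8 and 15.6 TPM.

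**Figure D5:**
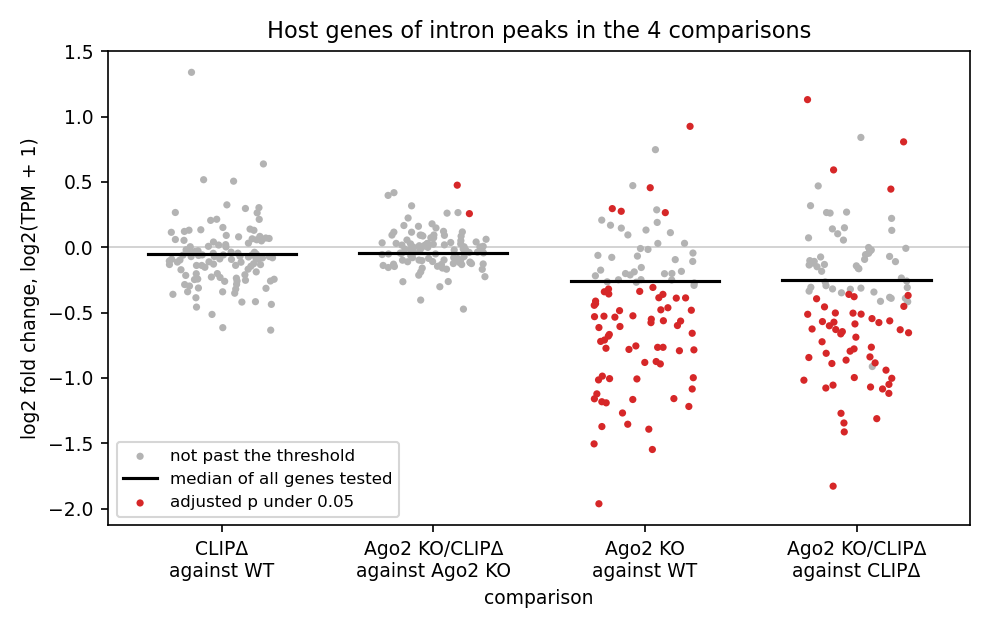
Log2 fold change on the log2(TPM + 1) scale (vertical axis) of each host gene of intron peaks tested in the 4 comparisons (horizontal axis), with 1 point per gene, red where the limma adjusted p is under 0.05, and a black line at the median of all genes tested. The median of all genes is -0.26 and -0.25 in the 2 comparisons that remove Ago2 and -0.05 in the other 2.

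In cells without Ago2 the same site was compared again. Between *Ago2* KO/CLIPΔ and *Ago2* KO mESCs, 2 of 102 hosts passed, 1.96% against 3.22% of all 10956 genes. Both were higher (0.986% of all genes) and none lower (2.24%), and 14 had an unadjusted limma p under 0.05 (18.4% of all genes). *Atg13*, an autophagy initiation gene with a peak of 7512 reads, was at 33.2 to 36.8 TPM against 24.5 to 26.3 TPM, a rise of 0.47 ± 0.06 (limma adjusted p = 0.00377). *Map1lc3b*, which encodes the autophagosome protein LC3B and shares its peak with the overlapping gene *Gm20388*, was at 169 to 189 TPM against 145 to 158 TPM, a rise of 0.26 ± 0.06 (limma adjusted p = 0.0416). *Map1lc3b* lost its call when any 1 library was left out other than *Ago2* KO/CLIPΔ replicate 1. Libraries 1 and 2 of either genotype deviated from their means together, and against 3 and 4. With the replicate number as a block, 5 hosts passed, 3 higher, with *Atg13* and *Map1lc3b* among them, and 2 lower, *F2r* and *Phldb1*, beside 266 higher and 538 lower of all genes.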

How the data were processed

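Trim71 CLIP-seq had 2 immunoprecipitated samples and 1 input, and the authors deposited read counts for 1 pooled list of peaks. Per the study's methods, they removed rRNA, tRNA, and mitochondrial reads, mapped to mm10 with STAR, called peaks over the input with CLIPper, and annotated them to RefSeq. The libraries in which these counts were made, and their total depth, are not given in the sources used here. The authors deposited the RNA-seq as TPM, without counts, so depth is unknown, and the table sums to between 998656 and 999501 TPM per library. The submitters' processing notes also name HISAT2 2.1.0, cutadapt, SAMtools, CASAVA, and edgeR. All per-sample columns were used.

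Coordinates were read as 0-based starts, which the file does not state, and printed 1-based. Hosts, introns, and small RNAs came from GENCODE M21 and sequence from GRCm38 (mm10). Of 224 hosts, 187 rows were found in the TPM table by name, GENCODE symbol, or RefSeq synonym. Windows of 50 nt were folded with RNAfold 2.7.2. Host changes were tested with limma 3.58.1 in R 4.3.3 (lmFit, eBayes with trend) on log2(TPM + 1), pseudocount 1, mean TPM of at least 1, only the 2 groups compared, and an adjusted p threshold of 0.05. The fit was tested on simulated data with 200 changed genes, and it recovered fewer of them for CLIPΔ against WT than for the other comparisons. Other summaries used Python 3.11.15, pandas 2.3.3, and pysam 0.24.0. Peaks of one experiment are not replicates, so peak classes are described without a test. The 95% intervals (Wilson) express counting error alone.

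Same-numbered *Ago2* KO/CLIPΔ and *Ago2* KO libraries deviated together (r = 0.43, 0.32, 0.42, and 0.36 for numbers 1 to 4), so the block with the replicate number is given beside that result. Different numbers within 1 and 2 (r = 0.34 and 0.39) or within 3 and 4 (r = 0.47 and 0.35) did so as well. The fits count the 4 libraries of a group as independent. Against WT or CLIPΔ their SEs and p-values may therefore be too small. The pairing comes from the labels' replicate numbers, and nothing in the labels says what they share. The members and gene lists were chosen with earlier results of these data known. By rule, the genes named were drawn from hosts with 2 or more intron peaks, hosts of the 10 peaks with the most reads, the 10 highest and 5 lowest hosts by WT TPM, hosts in the lists or of small RNAs, and the 5 highest and 5 lowest hosts past the threshold in each comparison, with *Ago2* and *Trim71*. *Parm1* in the CLIPΔ comparison and the genes with 11 letters or more of the run were chosen after their values were seen, as were the 7-nt words and flanks. Small-RNA-seq was not used here. Not every host that the rule covers is named, and the rest are given as counts and ranges. One host gene is not reported here.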

Additional observations from a re-analysis of the deposited data

Results flagged for a closer look

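Among the 46 groups of 4 libraries behind the named host genes, 1 had a library far from the other 3, and chance gives about 1 in 20. *Cep83* was at 1.41 TPM in 1 *Ago2* KO library and at 1.20, 1.22, and 1.23 TPM in the other 3.

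The change of *Parm1* that went with the deleted Trim71 site in *Ago2* mRNA differed with and without Ago2. The labels name no clones, so the site and the clone cannot be told apart. In limma over all 12 libraries, the difference between the 2 changes was -1.30 on the log2 scale (limma adjusted p = 0.0128, over 11287 genes). It was the only 1 of 104 hosts past the threshold, beside 0.647% of all genes, so this call is no result about the hosts as a set. *Parm1* was at 0.79 to 1.02 TPM in *Ago2* KO and 0.86 to 1.04 TPM in *Ago2* KO/CLIPΔ mESCs. Unlike the other fits, this one pools the spread of all genotypes, most of it from libraries without Ago2. The difference rests on the CLIPΔ libraries, at 4.997 and 2.85 TPM, and in the fit of CLIPΔ against WT alone *Parm1* did not pass.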

How the results depend on the processing

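Of the 49 alternatives for the counts and shares, 32 kept their value within the limit set and 17 moved it. With the replicate number as a block, hosts past the threshold numbered 1 instead of 0 (CLIPΔ against WT, *Parm1*), 41 instead of 67 (*Ago2* KO against WT), 5 instead of 2 (*Ago2* KO/CLIPΔ against *Ago2* KO), and 48 instead of 53 (*Ago2* KO/CLIPΔ against CLIPΔ), where blocks with WT or CLIPΔ use only libraries 1 and 2. Same-numbered CLIPΔ and WT libraries deviated together (r = 0.716), but 2 pairs are too few to show that the numbers pair the samples. In the other 2 comparisons with WT or CLIPΔ the same-number r was 0.06 and -0.15, and -0.18 and 0.23. With no filter on low values the counts were 101 of 187 for *Ago2* KO against WT and 6 of 187 for *Ago2* KO/CLIPΔ against *Ago2* KO. Leaving out 1 library at a time gave 0 to 1, 56 to 73, 1 to 2, and 33 to 51 hosts for CLIPΔ against WT, *Ago2* KO against WT, *Ago2* KO/CLIPΔ against *Ago2* KO, and *Ago2* KO/CLIPΔ against CLIPΔ, with a lone library assumed to vary like the other group. Intron peaks were 55.2% of peaks of at least 5 nt, hosts with repeated peaks fell to 8 after merging within 100 nt, and 18.6% of 30-nt windows held a piece, against 2.42% of all such windows in the host introns. A shorter window has room for fewer pieces, and the other causes were not tested. Directions turned for *Drosha* (0.14) and *Zfp42* (0.16) in *Ago2* KO against WT after median centring, and for *Mtf2* in CLIPΔ against WT without CLIPΔ replicate 1 (-0.10) or WT replicate 2 (-0.20), within a range of -0.20 to 0.36 over its left-out libraries, none of them past the threshold. Leaving out peaks within 25 nt of a small RNA, an alternative chosen after seeing the data, gave an intron share of 52.9% and pieces in 38.9% of windows. TPM without counts gives no depth for low hosts.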
